A study of Mus musculus with 8 samples.

Results

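The transporters described here carry amino acids across the plasma membrane. They are 10 of the 18193 genes measured, read by 23 probe sets, and were chosen as a family by name because 1 of them, Slc7a2, had one of the largest differences between PGC-1α and GFP cells in its response to iron chelation. That difference is therefore given below as a description and without a test, and counts of genes that passed a test cover the other 9. Slc7a1 and Slc7a2 are the cationic amino acid transporters CAT1 and CAT2, which bring in arginine, lysine and ornithine. Slc3a2 is the heavy chain that carries a light chain to the membrane: with Slc7a5 (LAT1) it exchanges large neutral amino acids such as leucine, and with Slc7a11 (xCT) it brings in cystine in exchange for glutamate. Slc38a1, Slc38a2 and Slc38a4 encode the sodium-coupled neutral amino acid transporters SNAT1, SNAT2 and SNAT4, and Slc1a4 (ASCT1) and Slc1a5 (ASCT2) exchange small neutral amino acids, the last with a preference for glutamine. In muscle, as in other tissues, leucine and arginine inside the cell are sensed by the kinase complex mTORC1, and several of these transporter genes are known targets of ATF4, the transcription factor that is translated when an amino acid runs short.

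RNA came from C2C12 myotubes, muscle cells with many nuclei that an established line of mouse myoblasts forms in low serum. The myoblasts were differentiated for 3 days in medium with 2% dialyzed serum, given adenovirus, and harvested 3 days later. The 4 groups were GFP-PGC-1α with 100 µM deferoxamine (DFO, an iron chelator), GFP-PGC-1α without DFO, GFP with DFO and GFP without DFO, with 2 arrays each. All of them, the GFP cells too, carried adenovirus and GFP. PGC-1α, which coactivates the transcription of mitochondrial genes, came from a construct labelled GFP-PGC-1α, on top of the cells' own gene. The 2 arrays per group are described in the series' design as biological duplicates, with nothing more on their cultures. Below, the 4 groups are called PGC-1α plus DFO, PGC-1α, GFP plus DFO and GFP.

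Values are deposited probe-set intensities, each gene read by its brightest probe set, and changes are log2 values ± SE from limma with Benjamini-Hochberg adjusted p-values over all 18193 genes, called at 0.05. Intensities of different genes cannot be ranked against each other, since each probe set has its own brightness. Ppargc1a, the gene of PGC-1α, read 7930.3 and 7710.4 in PGC-1α plus DFO and 7210.6 and 7036.4 in PGC-1α, against 26.6 and 88.1 in GFP plus DFO and 28.6 and 37.3 in GFP. On this brightest probe set PGC-1α against GFP had 7.34 with DFO and 7.77 without it. With the mean of the gene's probe sets these changes were 0.73 (limma adjusted p = 0.0515) and 0.86 (0.0544). Array medians lay between 59.45 and 62.82, and duplicate arrays correlated at 0.942 to 0.962 (Pearson r over probe sets, which are no replicates). The beta-actin 5' to 3' signal ratio, a sign of RNA integrity, was 0.753 and 0.811 in PGC-1α plus DFO, 0.897 to 0.919 in PGC-1α, 0.859 and 0.868 in GFP plus DFO and 0.898 and 0.921 in GFP. In PGC-1α plus DFO the poly-A spike-in controls were dimmer. On a scale set by 27 such probe sets, the median change of all genes was 0.36 instead of 0.01 for DFO in PGC-1α cells, 0.45 instead of -0.05 for PGC-1α with DFO, 0.13 instead of -0.08 for PGC-1α without DFO and 0.05 instead of -0.02 for DFO in GFP cells. Changes below are relative to the deposited scale.

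Slc7a11, Slc1a4 and Slc3a2 were among the members whose array values moved. Their promoters are shown because each holds the letters of at least 1 of 2 elements, known from amino acid shortage and from hypoxia. Promoters of Slc7a1, Slc38a2 and Slc38a4 also held the letters of the hypoxia element and are not shown. Each run covers 250 bases before and 50 after the transcript start in RefSeq (GRCm38.p6), 5′ to 3′ on the gene's strand, and capitals mark the matches.
Slc7a11, chr3:50443564-50443863, minus strand: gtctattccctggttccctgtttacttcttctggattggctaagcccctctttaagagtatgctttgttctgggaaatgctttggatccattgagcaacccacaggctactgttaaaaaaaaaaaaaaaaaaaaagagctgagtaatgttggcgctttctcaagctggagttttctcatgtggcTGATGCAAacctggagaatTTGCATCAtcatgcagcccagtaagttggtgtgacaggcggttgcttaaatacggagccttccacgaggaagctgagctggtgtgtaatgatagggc
Slc1a4, chr11:20332664-20332963, minus strand: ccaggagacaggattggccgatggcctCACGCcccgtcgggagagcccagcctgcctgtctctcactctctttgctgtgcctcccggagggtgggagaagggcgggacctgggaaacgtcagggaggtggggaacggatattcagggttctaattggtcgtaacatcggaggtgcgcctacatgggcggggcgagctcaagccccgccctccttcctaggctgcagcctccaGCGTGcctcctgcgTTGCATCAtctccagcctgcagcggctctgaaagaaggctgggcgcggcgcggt
Slc3a2, chr19:8713848-8714147, minus strand: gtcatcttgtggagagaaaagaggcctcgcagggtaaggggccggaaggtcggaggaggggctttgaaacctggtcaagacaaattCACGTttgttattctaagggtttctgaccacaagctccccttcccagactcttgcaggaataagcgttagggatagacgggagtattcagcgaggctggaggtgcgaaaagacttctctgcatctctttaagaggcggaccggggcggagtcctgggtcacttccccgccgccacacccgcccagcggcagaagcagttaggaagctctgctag
The motif TGATGNAA, the C/EBP-ATF element through which ATF4 is known to act, was searched on both strands. It matched the Slc7a11 promoter at 66 bases before the start on the gene's strand and at 47 bases on the other, and the Slc1a4 promoter at 4 bases before the start on the other strand. Of 32851 promoters of this length 3.97% held it. The core of the hypoxia response element, ACGTG or GCGTG, matched Slc3a2 at 164 bases before the start (as ACGTG, other strand) and Slc1a4 at 223 (as GCGTG, other strand) and 18 (as GCGTG, gene's strand). These short motifs are common, ACGTG standing in 19.6% and GCGTG in 32.4% of all promoters. In all, 6 members had 9 promoters in the reference, of which 2 members held TGATGNAA and 5 held a hypoxia core, while AAGGTCA, the element of the estrogen-related receptors that PGC-1α coactivates, and CACGTG, the E-box, which contains ACGTG, matched none (4.72% and 7.15% of all promoters). The member counts cover up to 3 promoters of a gene and, for hypoxia, either core. The shares are per promoter and per single motif, so the counts cannot be set against them. A match is a run of letters and no evidence of binding.

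**Figure D1:**
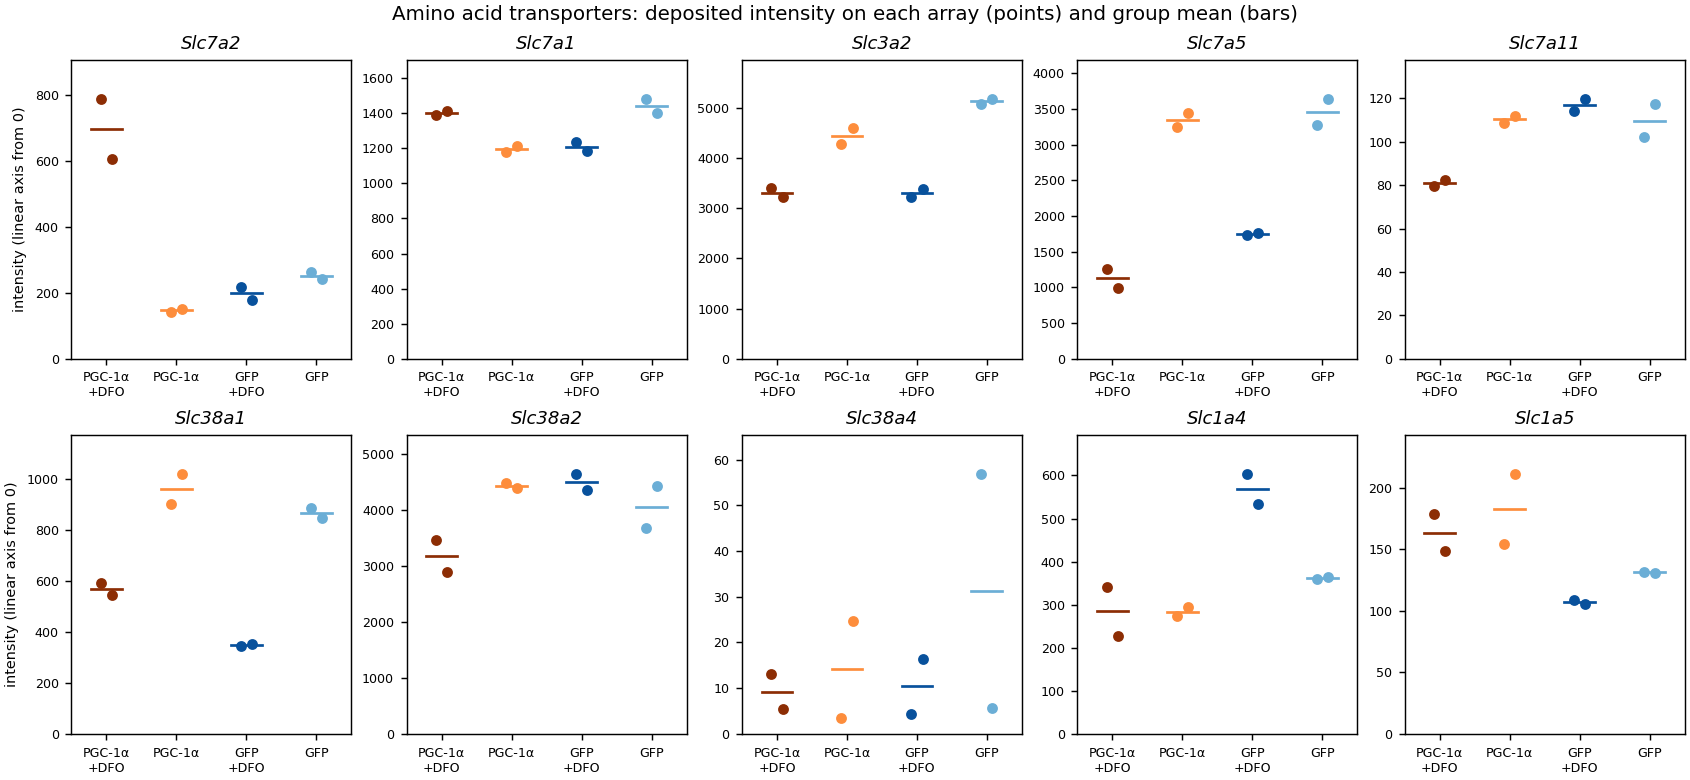
Deposited intensity of each transporter (linear axes from 0) on each array (points) of the groups PGC-1α plus DFO, PGC-1α, GFP plus DFO and GFP, with group means (bars). Slc7a2 stood at 787.6 and 605.4 in PGC-1α plus DFO, against 142.2 to 261.9 on the other 6 arrays, while Slc7a5 was lower on the DFO arrays with either construct.

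Slc7a2 encodes the cationic amino acid transporter that muscle and activated macrophages are known to use. It was highest in PGC-1α plus DFO: PGC-1α plus DFO read 787.6 and 605.4, against 142.2 and 151.4 in PGC-1α, 218.2 and 178.5 in GFP plus DFO and 261.9 and 241.1 in GFP. The order of the group means was PGC-1α plus DFO (697 ± 129), GFP (251 ± 14.7), GFP plus DFO (198 ± 28.1) and PGC-1α (147 ± 6.46; SD, n = 2), with no overlap between neighbours. DFO thus went with a log2 change of 2.23 ± 0.17 in PGC-1α cells, 4.71-fold, and of -0.35 ± 0.17 in GFP cells. Read the other way, PGC-1α against GFP had 1.81 ± 0.17 with DFO, 3.5-fold, and -0.78 ± 0.17 without it. The interaction, the DFO change in PGC-1α cells minus that in GFP cells, was 2.58 ± 0.24, the third highest of the 9096 genes above the median level, and it was this value that chose the family.

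Slc7a2 has 3 further probe sets, all of them dim. Probe set 1422648_at read 81.2 and 78.6 in PGC-1α plus DFO, against 27.4 and 50 in PGC-1α, 31.6 and 41.4 in GFP plus DFO and 42.1 and 59.1 in GFP. Probe set 1426008_a_at read 59.9 and 59.9 in PGC-1α plus DFO, against 22.9 and 35.6 in PGC-1α, 24.9 and 29.0 in GFP plus DFO and 44.9 and 49.9 in GFP. In both, as in the brightest, PGC-1α plus DFO was above every other array, with DFO changes in PGC-1α cells of 1.11 and 1.07 and interactions of 1.57 and 1.88. The dimmest, 1450703_at, lay between 3.1 and 13.3 on all arrays and had an interaction of -1.36. Averaging the 4 probe sets brought the interaction to 1.17.

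By Pearson r of log2 intensity over the 8 arrays, the gene most like Slc7a2 among the 9095 others above the median level was Pole4, a DNA polymerase epsilon subunit (r = 0.98). It was followed by Agpat4, an acyltransferase of phospholipid synthesis (0.974), Nrp2, a semaphorin and VEGF receptor (0.972), and Tbc1d22a and Snap47 (0.965 each). Agpat4 read 2393.5 and 2210.6 in PGC-1α plus DFO, against 1114.2 and 1175.9 in PGC-1α, 1154.3 and 1271.3 in GFP plus DFO and 1341.1 and 1357.4 in GFP. Their interactions were between 0.31 and 1.19, below that of Slc7a2, so they followed its pattern over the arrays with smaller steps. In all 5, PGC-1α plus DFO was the highest group and PGC-1α the lowest, and the 8 arrays form 4 groups.

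Slc7a1, the more widely expressed cationic transporter, moved far less. It read 1392.3 and 1409.6 in PGC-1α plus DFO and 1178.8 and 1213.4 in PGC-1α, against 1236.8 and 1182.8 in GFP plus DFO and 1480.4 and 1403.3 in GFP. Both DFO arrays were above both untreated ones in PGC-1α cells and below them in GFP cells. The changes with DFO, 0.23 ± 0.08 and -0.25 ± 0.08, did not pass (limma adjusted p = 0.102 and 0.0811). Nor did those of PGC-1α against GFP, 0.21 ± 0.08 with DFO and -0.27 ± 0.08 without it (adjusted p = 0.14 and 0.104). With spike-in scaling 2 of them passed, DFO in PGC-1α cells (0.58, adjusted p = 0.0357) and PGC-1α with DFO (0.71, adjusted p = 0.0258). All 4 passed with trend and robust options (0.0126 to 0.0369) and among genes above the median level (0.0225 to 0.048). The interaction value was 0.48 ± 0.11. A second bright probe set, 1454991_at, differed in direction: 1054.2 and 912.1 in PGC-1α plus DFO stood below 1243.2 and 1306.3 in PGC-1α, and 951.9 and 986.2 in GFP plus DFO below 1576.9 and 1493.6 in GFP. In a fit of every probe set it fell by 0.66 with DFO in GFP cells (adjusted p = 0.016), and had -0.38 in PGC-1α cells (adjusted p = 0.074). The dimmest probe set, 1421533_at, passed in no comparison. It was lower without overlap with DFO in PGC-1α cells (-0.39) and in GFP cells (-0.40). The same held with PGC-1α under DFO (-0.35) and without DFO (-0.37). With the mean of all probe sets the Slc7a1 change with DFO in PGC-1α cells was -0.18, so its direction there depended on the probe set.

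**Figure D2:**
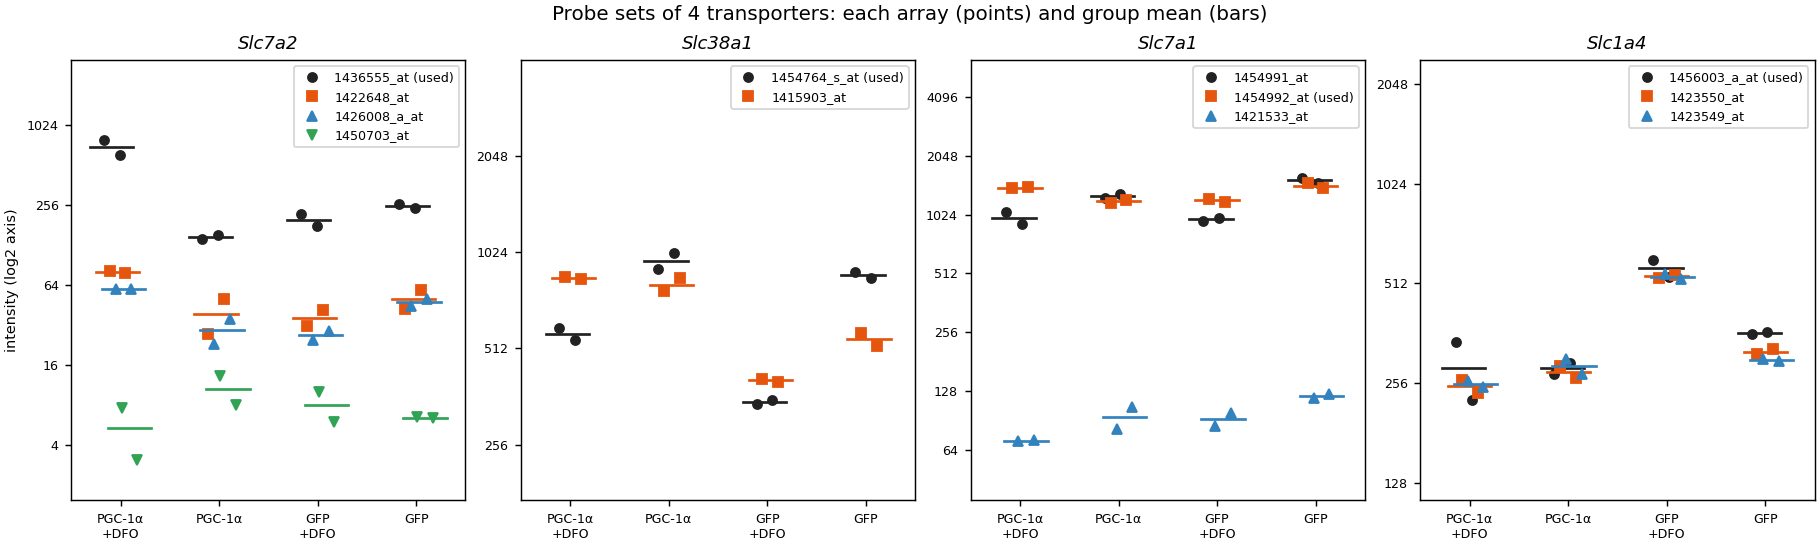
Intensity (log2 axis) of every probe set of Slc7a2, Slc38a1, Slc7a1 and Slc1a4 on each array (points, with group means as bars), in the order PGC-1α plus DFO, PGC-1α, GFP plus DFO, GFP. The 3 probe sets of Slc1a4 run alike, while those of Slc7a1 and of Slc38a1 part between PGC-1α plus DFO and PGC-1α.

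Genes of arginine, polyamine and creatine metabolism were looked at as a list of 17, of which 15 were measured. With DFO 4 rose and 5 fell in PGC-1α cells, and 3 rose and 4 fell in GFP cells. With PGC-1α 2 rose and 2 fell in the presence of DFO, and 0 rose and 1 fell without it. These are 60%, 46.7%, 26.7% and 6.67% of the 15, against 25.6%, 24.2%, 18.9% and 9.73% of all genes. With spike-in scaling 4 rose and 2 fell, 3 rose and 2 fell, 3 rose and 1 fell, and 0 rose and 1 fell in the same order. The largest rise was in Nos2, the inducible nitric oxide synthase, which makes nitric oxide from arginine. It read 1488.2 and 1492.6 in PGC-1α plus DFO and 8.5 and 21.2 in PGC-1α, against 233.3 and 240.8 in GFP plus DFO and 25 and 16.7 in GFP. DFO raised it by 6.80 ± 0.45 in PGC-1α cells (adjusted p = 0.000591) and by 3.54 ± 0.45 in GFP cells (adjusted p = 0.00483). Its rise with PGC-1α in the presence of DFO, 2.65 ± 0.45 (adjusted p = 0.0168), ended without PGC-1α plus DFO replicate 1 (adjusted p = 0.0575) or 2 (0.075) and without GFP plus DFO replicate 1 (0.0995) or 2 (0.0899).

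Arg2, the mitochondrial arginase, was dim and also highest in PGC-1α plus DFO. It read 52.7 and 37.8 there and 14.7 and 19.9 in PGC-1α, against 14.2 and 17.7 in GFP plus DFO and 25.9 and 17.1 in GFP. It rose with DFO in PGC-1α cells by 1.38 ± 0.30 (adjusted p = 0.0249) and with PGC-1α under DFO by 1.49 ± 0.30 (adjusted p = 0.0264). Neither call held with the mean of its probe sets (adjusted p = 0.327 and 0.0765). Without single arrays the first ended for PGC-1α replicate 1 (0.116) or 2 (0.0522), PGC-1α plus DFO replicate 1 (0.0973) and either GFP plus DFO array (0.0505), and the second for PGC-1α plus DFO replicate 1 (0.0854) or 2 (0.0563) and GFP plus DFO replicate 1 (0.143) or 2 (0.0921). Gatm, which starts creatine synthesis from arginine and glycine, fell by 2.79 ± 0.09 with DFO in PGC-1α cells (adjusted p = 9.86e-05) and fell by 1.56 ± 0.09 in GFP cells (adjusted p = 0.000495). Gamt, the enzyme of the next step, had -1.60 and -1.80 (adjusted p = 0.000842 and 0.000703). Odc1, which makes the polyamine putrescine from ornithine, had -0.45 ± 0.10 with DFO in either construct (adjusted p = 0.0273 and 0.0285), and both calls ended with spike-in scaling (0.685 and 0.167). In PGC-1α cells it also ended without any array other than PGC-1α plus DFO replicate 1 (0.0529 to 0.117), and in GFP cells without any array outside PGC-1α plus DFO (0.0582 to 0.139).

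The heavy chain and the light chain of LAT1 both fell with DFO. Slc7a5 read 1257.9 and 998.4 in PGC-1α plus DFO, against 3252.3 and 3440.4 in PGC-1α, and 1734.5 and 1759.1 in GFP plus DFO, against 3272.7 and 3637.8 in GFP. The DFO arrays were below the untreated ones with no overlap in either construct. The log2 change was -1.58 ± 0.14 in PGC-1α cells (2.98-fold lower, adjusted p = 0.00129) and -0.98 ± 0.14 in GFP cells (1.98-fold lower, adjusted p = 0.00633). Both calls held in all 18 alternative settings tried, left-out arrays included. Without DFO the constructs overlapped, with a change of -0.04 ± 0.14 for PGC-1α (adjusted p = 0.872). With DFO, PGC-1α cells had -0.64 ± 0.14 against GFP cells (adjusted p = 0.0318). That call ended with spike-in scaling (-0.14, adjusted p = 0.593), in a fit of only the arrays compared (0.116), without either GFP array (0.0559) or either PGC-1α array (0.0664), without PGC-1α plus DFO replicate 2 (0.0724) and without GFP plus DFO replicate 1 (0.147) or 2 (0.144). The interaction value was -0.60 ± 0.19.

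Slc3a2 read 3410.4 and 3214.6 in PGC-1α plus DFO, against 4279.3 and 4602.4 in PGC-1α, and 3230.8 and 3387.7 in GFP plus DFO, against 5081.5 and 5174.1 in GFP. The groups with DFO overlapped between the constructs, with a change of 0.00 ± 0.09 for PGC-1α (adjusted p = 0.998). With DFO Slc3a2 fell by 0.63 ± 0.09 in GFP cells (adjusted p = 0.00611), a call that ended with spike-in scaling (0.076) and without GFP plus DFO replicate 1 (0.0534). In PGC-1α cells it fell by 0.42 ± 0.09 (adjusted p = 0.0215). On the spike-in scale that change was -0.07 (adjusted p = 0.788), and the call also ended in a fit of only the arrays compared (0.113) and without PGC-1α replicate 1 (0.0666) or 2 (0.103), PGC-1α plus DFO replicate 2 (0.0667) or either GFP plus DFO array (0.0557). Without DFO, PGC-1α against GFP had -0.21 ± 0.09 (adjusted p = 0.198). Over the 8 arrays log2 Slc3a2 and Slc7a5 correlated with r = 0.91, a description over 4 groups.

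Slc7a11, the cystine light chain, was below the median gene level. On its brightest probe set it was lowest in PGC-1α plus DFO. It read 79.8 and 82.5 in PGC-1α plus DFO, against 108.7 and 112.0 in PGC-1α, 114.1 and 119.7 in GFP plus DFO and 102.0 and 117.6 in GFP. The 6 arrays of the other groups lay between 102.0 and 119.7, so PGC-1α plus DFO was below all of them. It fell by 0.44 ± 0.10 with DFO in PGC-1α cells (adjusted p = 0.0293) and fell by 0.53 ± 0.10 with PGC-1α under DFO (adjusted p = 0.0234). In GFP cells the DFO change was 0.09 ± 0.10 (adjusted p = 0.577) and without DFO the PGC-1α change was 0.01 ± 0.10 (adjusted p = 0.964). The first call ended without either PGC-1α array (adjusted p = 0.107 and 0.117), either PGC-1α plus DFO array (0.0876 and 0.0719) or either GFP plus DFO array (0.0686). The second ended without either PGC-1α array (0.0556), either PGC-1α plus DFO array (0.0641 and 0.0684) or either GFP plus DFO array (0.113 and 0.133). On the spike-in scale the changes were -0.09 and -0.02. Both calls also ended with the mean of the probe sets (adjusted p = 0.117 and 0.213) and in a fit of only the arrays compared (0.0907 and 0.0796), and the first with trend and robust options (0.0798). The second probe set, 1443536_at, did not show this pattern. It read 67.4 and 112.8 in PGC-1α plus DFO, against 109.6 and 131.0 in PGC-1α, 96.9 and 104.5 in GFP plus DFO and 72.2 and 64.2 in GFP, so that GFP had the lowest mean, and it passed in no comparison. The promoter with 2 TGATGNAA matches shown above is that of this gene. Its array pattern ran opposite to that of Slc7a2 (r = -0.91 over 8 arrays).

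Of the 11 genes of glutathione synthesis and the oxidant response measured beside Slc7a11, 4 rose and 0 fell with DFO in PGC-1α cells and 7 rose and 0 fell in GFP cells. Under DFO 0 rose and 6 fell in PGC-1α against GFP cells, and without DFO 1 rose and 1 fell. These are 36.4%, 63.6%, 54.5% and 18.2% of the list, against 25.6%, 24.2%, 18.9% and 9.73% of all genes. Medians were 0.19, 0.56, -0.55 and 0.05, against 0.01, -0.02, -0.05 and -0.08 for all genes. On the spike-in scale the medians were 0.54, 0.62, -0.05 and 0.26, and under DFO 2 rose and 2 fell with PGC-1α, so the lower level there depended on the scaling. Srxn1, sulfiredoxin, rose with DFO by 1.09 in PGC-1α cells (adjusted p = 0.00213) and by 2.43 in GFP cells (adjusted p = 0.0003), and Hmox1, haem oxygenase, by 2.11 and 1.69 (adjusted p = 0.000249 and 0.000542). Gsr, glutathione reductase, fell by 1.16 with PGC-1α under DFO (adjusted p = 0.00154) and had -0.90 without DFO (adjusted p = 0.00538). The call without DFO ended with spike-in scaling (0.0653) and in a fit of only the arrays compared (0.0714). With DFO Gsr rose by 0.57 in PGC-1α cells (adjusted p = 0.0066) and by 0.83 in GFP cells (adjusted p = 0.00214). The first of these ended in a fit of only the arrays compared (0.0627). Gclc, the catalytic subunit of glutamate-cysteine ligase, passed in none of the 4 comparisons. Gclm, its modifier subunit, rose with DFO in GFP cells by 0.75 ± 0.12 (adjusted p = 0.0104), a call that ended without GFP replicate 1 (0.0565) and without GFP plus DFO replicate 1 (0.0696) or 2 (0.0664).

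**Figure D3:**
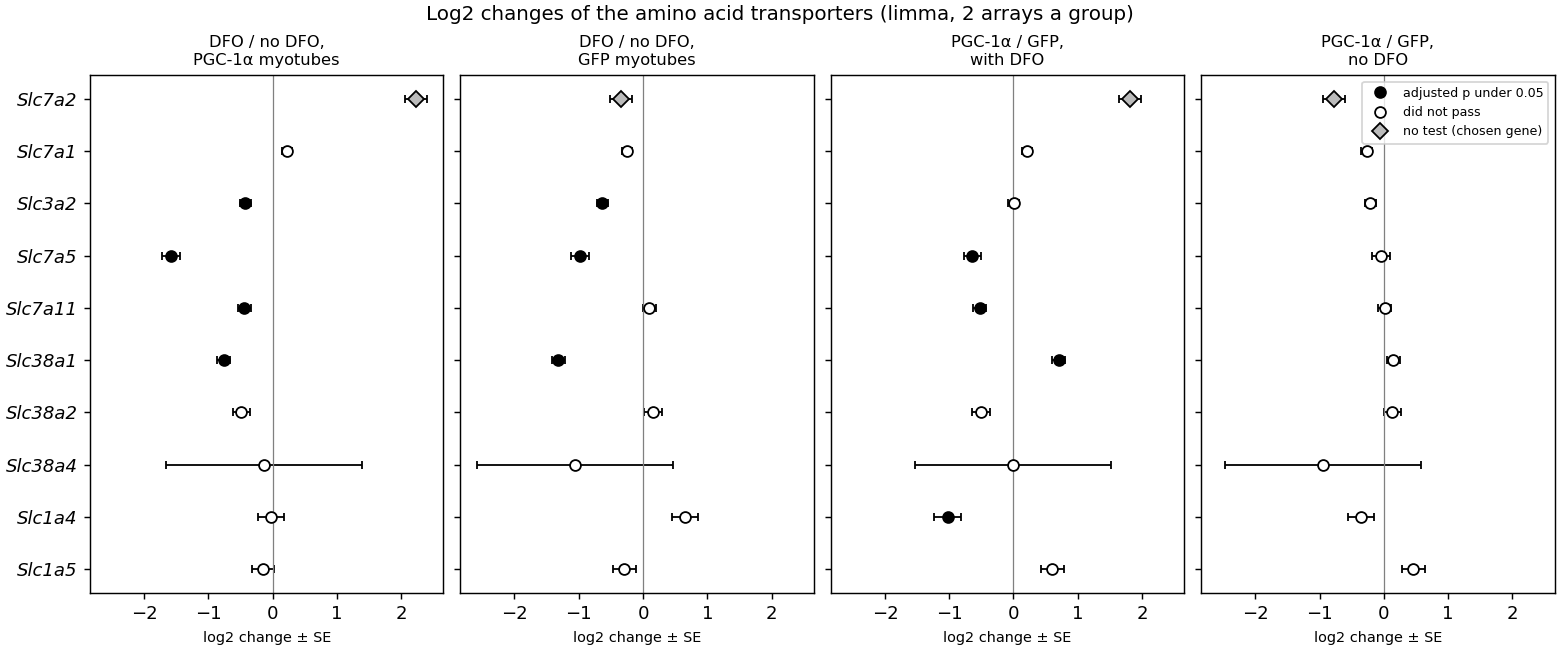
Log2 change ± SE of each transporter from limma for DFO against no DFO in PGC-1α and in GFP myotubes, and for PGC-1α against GFP with and without DFO. Filled circles have an adjusted p under 0.05, open circles do not, and grey diamonds mark Slc7a2, which has no test. Slc7a5 lies at -1.58 and -0.98 with DFO, and no circle is filled for PGC-1α without DFO.

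Among the 3 SNAT genes, Slc38a1 passed the test and fell with DFO. It read 591.5 and 544.9 in PGC-1α plus DFO, against 904.2 and 1020.6 in PGC-1α, and 343.9 and 352.6 in GFP plus DFO, against 887.7 and 849.0 in GFP. It fell by 1.32 ± 0.10 with DFO in GFP cells (2.49-fold, adjusted p = 0.00102), a call that held in all 18 alternatives, and fell by 0.76 ± 0.10 in PGC-1α cells (adjusted p = 0.0051). Under DFO it was higher in PGC-1α than in GFP cells by 0.71 ± 0.10 (adjusted p = 0.00981), which ended without GFP plus DFO replicate 1 (0.0791) or 2 (0.0676) and in a fit of only the arrays compared (0.0596). Without DFO the change was 0.15 ± 0.10 (adjusted p = 0.41). The interaction value was 0.56 ± 0.14.

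The second Slc38a1 probe set, 1415903_at, gave another picture in PGC-1α cells. It read 858.5 and 842.9 in PGC-1α plus DFO, against 773.7 and 848.5 in PGC-1α, and 411.7 and 402.5 in GFP plus DFO, against 572.4 and 521.7 in GFP. In a fit of every probe set its DFO change was -0.42 in GFP cells (adjusted p = 0.047) and 0.07 in PGC-1α cells (adjusted p = 0.697), and it was higher with PGC-1α both under DFO, by 1.06 (adjusted p = 0.006), and without DFO, by 0.57 (adjusted p = 0.046). So the fall in GFP cells and the rise with PGC-1α under DFO were read by both probe sets, and the fall in PGC-1α cells by 1 of them. The brightest probe set has the suffix _s_at, which marks probes that can match several transcripts. With the mean of the probe sets that change was -0.34 (adjusted p = 0.0814), with spike-in scaling -0.40 (0.134), and in a fit of only the arrays compared its adjusted p was 0.0574.

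Slc38a2, known for its rise when amino acids are withdrawn, passed in none of the 4 comparisons. It read 3459.4 and 2890.4 in PGC-1α plus DFO, against 4469.4 and 4380.8 in PGC-1α, 4635.1 and 4353.2 in GFP plus DFO and 3674.6 and 4429.2 in GFP. PGC-1α plus DFO lay below every other array, with -0.48 ± 0.14 against PGC-1α (adjusted p = 0.0584) and -0.51 ± 0.14 against GFP plus DFO (adjusted p = 0.0631), and the others overlapped. The second of these passed in 4 of the 18 alternatives (adjusted p from 0.00111 to 0.048) and the first in 3 (0.00116 to 0.038), trend and robust options among them. Its dim probe set 1429594_at, with 46.6 and 31.9 in PGC-1α plus DFO, 27.0 and 25.8 in PGC-1α, 33.1 and 37.4 in GFP plus DFO and 65.6 and 61.4 in GFP, fell by 1.26 with PGC-1α without DFO (adjusted p = 0.033). It also fell by 0.85 with DFO in GFP cells (adjusted p = 0.041). The brightest probe set had 0.13 ± 0.14 and 0.16 ± 0.14 in these comparisons (adjusted p = 0.595 and 0.499), so these 2 probe sets did not read the same direction there. The second-brightest, 1429593_at, had -0.11 and -0.12 there. Its PGC-1α plus DFO arrays, 844.8 and 1060.2, lay below every other array, as on the brightest. In the fit of every probe set it had -0.34 against PGC-1α (adjusted p = 0.185) and -0.33 against GFP plus DFO (adjusted p = 0.231). Slc38a4, a transporter best known from liver and placenta, was below the median gene level. It ranged from 3.4 to 56.8 over the arrays with overlap in every comparison, and its changes, with an SE of 1.52 each, passed in none.

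The exchanger Slc1a4 was high in 1 group, GFP plus DFO. It read 341.6 and 227.9 in PGC-1α plus DFO and 273.8 and 294.4 in PGC-1α, against 603.0 and 534.6 in GFP plus DFO and 360.3 and 364.5 in GFP. Under DFO it was 2.03-fold lower in PGC-1α than in GFP cells (log2 change -1.02 ± 0.20, adjusted p = 0.0259). The change with DFO in GFP cells, 0.65 ± 0.20, missed the threshold (adjusted p = 0.0784) but passed in 7 of the 18 alternatives (0.00582 to 0.0497), and PGC-1α cells had -0.02 ± 0.20 with DFO (adjusted p = 0.951). Its other probe sets, 1423549_at and 1423550_at, had tighter arrays and gave both: 1423549_at read 259.8 and 250.3 in PGC-1α plus DFO and 302.8 and 272.9 in PGC-1α, against 545.4 and 527.8 in GFP plus DFO and 303.6 and 298.4 in GFP. In the fit of every probe set their changes with PGC-1α under DFO were -1.07 and -1.10 (adjusted p = 0.005 for both) and those with DFO in GFP cells 0.83 and 0.76 (adjusted p = 0.006 and 0.008). The call on the brightest probe set ended with spike-in scaling (-0.52, adjusted p = 0.106), in a fit of only the arrays compared (0.116), without either GFP array (0.0559), either PGC-1α array (0.0568) or GFP plus DFO replicate 1 (0.143) or 2 (0.0988). Without DFO, PGC-1α against GFP had -0.35 ± 0.20 (adjusted p = 0.33).

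Slc1a5, the glutamine exchanger, passed in none of the 4 comparisons. It read 178.7 and 148.5 in PGC-1α plus DFO and 154.6 and 211.0 in PGC-1α, against 109.0 and 105.7 in GFP plus DFO and 131.9 and 130.8 in GFP. All 4 PGC-1α arrays were above all 4 GFP arrays, yet the changes of 0.60 ± 0.18 with DFO and 0.46 ± 0.18 without it had adjusted p = 0.0751 and 0.172. The first passed in 5 of the 18 alternatives, among them spike-in scaling (1.11, adjusted p = 0.0248) and quantile normalization (0.71, adjusted p = 0.0359), and the second in 1, genes above the median level (0.0438). A second probe set, 1440379_at, overlapped between the constructs.

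Over the 9 tested members, DFO in GFP cells lowered 3 (33.3%; Slc7a5, Slc3a2 and Slc38a1) and raised 0, against 24.2% of all genes called and 12.5% called lower (11.8% higher). Before adjustment 5 of the 9 had p under 0.05, as had 6502 of all 18193 genes. In PGC-1α cells DFO lowered 4 (44.4%: those 3 and Slc7a11) and raised 0, against 25.6% called and 14.2% lower (11.4% higher). Here 6 of the 9 had p under 0.05 before adjustment, as had 6780 of all genes. The median changes were -0.29 and -0.42, against -0.02 and 0.01 for all genes. Scaled by the spike-ins, these medians were -0.23 and -0.07, with 0 rising and 2 falling in GFP cells and 1 rising (Slc7a1) and 1 falling (Slc7a5) in PGC-1α cells. PGC-1α under DFO raised 1 (Slc38a1) and lowered 3 (Slc7a5, Slc7a11 and Slc1a4), against 18.9% of genes called (6.93% higher, 12% lower), and the median was -0.01 (0.49 with spike-in scaling). The balance turned over with that scaling: 3 rose (Slc1a5, Slc38a1 and Slc7a1) and 0 fell. Without DFO limma called 0 of the 9 for PGC-1α, against 9.73% of all genes called (4.96% higher, 4.77% lower). Under an unadjusted 0.05 were 2 of the 9 and 5036 of all genes. The median of the 9 was -0.04 (0.17 with spike-in scaling). For PGC-1α without DFO, eBayes with trend and robust options called 2 members, Slc3a2 and Slc7a1, and 3746 of all genes. For PGC-1α under DFO that setting called 7 members and 4992 of all genes, and a fit of only the 4 arrays compared called 0 members and 861 genes. For DFO in PGC-1α cells the fit of only the arrays compared called 1 member, Slc7a5, and 1942 of all genes. Comparisons that share a group of arrays are not independent of each other. The counts under DFO depended on single arrays: for PGC-1α against GFP under DFO it was 0 without either GFP plus DFO array, 1 without either PGC-1α array and 2 without either GFP array or PGC-1α plus DFO replicate 2. For DFO in PGC-1α cells it was 2 without either PGC-1α array, either GFP plus DFO array or PGC-1α plus DFO replicate 2. For DFO in GFP cells it was 2 without GFP plus DFO replicate 1.

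The interaction values of the 10 members spread to both sides of 0. Positive were Slc7a2 (2.58 ± 0.24), Slc38a4 (0.93 ± 2.16), Slc38a1 (0.56 ± 0.14), Slc7a1 (0.48 ± 0.11), Slc3a2 (0.21 ± 0.12) and Slc1a5 (0.14 ± 0.25). Negative were Slc1a4 (-0.67 ± 0.29), Slc38a2 (-0.64 ± 0.20), Slc7a5 (-0.60 ± 0.19) and Slc7a11 (-0.54 ± 0.14). Over the alternative settings Slc7a2 ranged from 1.17 to 2.88, while Slc38a2 (-0.77 to 0.18), Slc38a4 (-0.74 to 2.61) and Slc1a5 (-0.08 to 0.44) changed sign in some.

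Among 21 other amino acid transporters of the plasma membrane the share called was near or below that of all genes in 3 comparisons and 28.6%, against 24.2%, with DFO in GFP cells. Of the 21, 1 rose and 2 fell with DFO in PGC-1α cells, and 2 rose and 4 fell in GFP cells. With PGC-1α 2 rose and 2 fell under DFO, and 0 rose and 1 fell without it. These are 14.3%, 28.6%, 19.0% and 4.76% of the list, against 25.6%, 24.2%, 18.9% and 9.73% of all genes. With spike-in scaling 5 rose and 1 fell, 2 rose and 2 fell, 3 rose and 1 fell, and 0 rose and 0 fell in the same order. The gene that fell with PGC-1α without DFO on the deposited scale was Slc6a9, the glycine transporter GlyT1. It read 468.7 and 482.1 in PGC-1α plus DFO and 922.4 and 993.6 in PGC-1α, against 1071.7 and 1115.9 in GFP plus DFO and 1542 and 1446.1 in GFP. Every step downward was without overlap: it fell by 1.01 with DFO in PGC-1α cells (adjusted p = 0.00131) and fell by 1.20 with PGC-1α under DFO (adjusted p = 0.00168). It also had -0.45 with DFO in GFP cells (adjusted p = 0.0189), which ended without GFP replicate 1 (0.0884) or 2 (0.0505) or GFP plus DFO replicate 1 (0.117) or 2 (0.0907), and -0.64 with PGC-1α without DFO (adjusted p = 0.0158), which ended without any of the 4 arrays compared (0.055 to 0.102) or either GFP plus DFO array (0.0567). The Slc6a9 calls for DFO in GFP cells and for PGC-1α without DFO also ended with spike-in scaling (limma adjusted p = 0.198 and 0.236). Both ended in a fit of only the arrays compared too (0.0556 and 0.0976), and the first with the mean of probe sets (0.0669). Of 7 lysosomal transporters, Slc36a4 rose with DFO by 1.22 ± 0.13 in PGC-1α cells (adjusted p = 0.00229) and by 1.57 ± 0.13 in GFP cells (adjusted p = 0.00116). In all, 1 of the 7 rose and 1 fell with DFO in PGC-1α cells, 2 rose and 0 fell in GFP cells, 1 rose and 1 fell with PGC-1α under DFO, and limma called 0 without DFO, where 9.73% of all genes were called; the other 3 shares are 28.6% each.

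Genes of the amino acid response, the targets and partners of ATF4, were measured for 18 of 19. With DFO 5 rose and 10 fell in PGC-1α cells and 4 rose and 10 fell in GFP cells, with medians of -0.57 and -0.53. With PGC-1α 4 rose and 5 fell under DFO and 1 rose and 1 fell without it. These are 83.3%, 77.8%, 50% and 11.1% of the list, against 25.6%, 24.2%, 18.9% and 9.73% of all genes. With spike-in scaling the medians with DFO were -0.22 and -0.47, 6 rose and 5 fell in PGC-1α cells, 4 rose and 7 fell in GFP cells, and with PGC-1α under DFO 7 rose and 0 fell. The members that fell most make serine: Phgdh, the first enzyme of its synthesis, had log2 changes with DFO of -2.52 ± 0.09 in PGC-1α cells (adjusted p = 0.00011) and -2.36 ± 0.09 in GFP cells (adjusted p = 0.000213), and Psph, the last, of -2.06 and -1.99 (adjusted p = 0.000492 and 0.000637). Asns, asparagine synthetase, fell by 0.66 ± 0.08 with DFO in PGC-1α cells (adjusted p = 0.00372, but 0.215 with spike-in scaling) and fell by 1.27 ± 0.08 in GFP cells (adjusted p = 0.000578). Chac1, which breaks down glutathione, fell by 1.56 ± 0.18 with DFO in PGC-1α cells (adjusted p = 0.00353). Against these, Ddit3, the transcription factor CHOP, rose with DFO by 1.39 in PGC-1α cells (adjusted p = 0.000464) and by 1.04 in GFP cells (adjusted p = 0.00124). Atf4 itself had 0.44 ± 0.08 with DFO in PGC-1α cells (adjusted p = 0.0148), a call that ended with the mean of its probe sets (0.656) and without PGC-1α replicate 1 (0.0762) or 2 (0.0724). Trib3 and Sesn2 passed in none of the 4 comparisons. The transporters Slc7a5 and Slc3a2 thus moved with DFO in the direction of Phgdh and Asns and opposite to Ddit3.

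**Figure D4:**
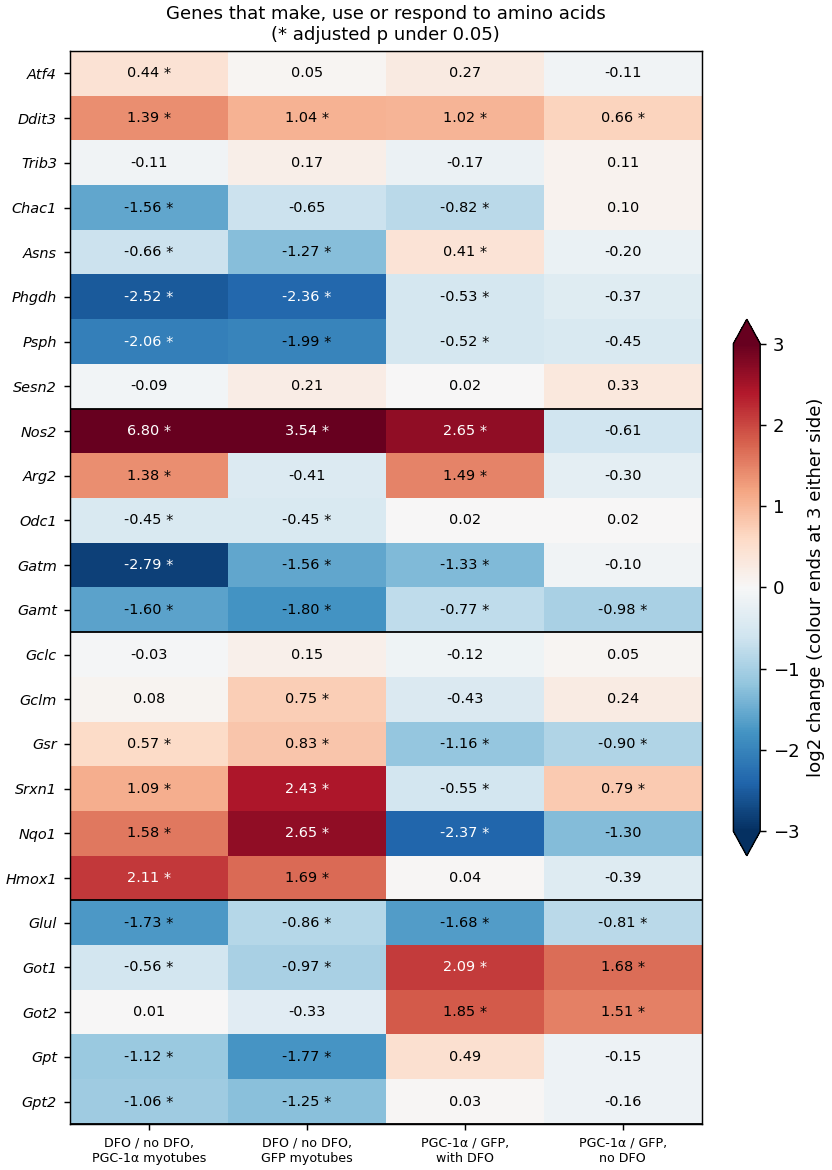
Log2 changes of genes of the amino acid response, of arginine and creatine, of glutathione and the oxidant response and of glutamine, for DFO in PGC-1α and GFP myotubes and for PGC-1α with and without DFO. Red is higher and blue lower in the first-named condition, and stars mark an adjusted p under 0.05. Phgdh and Psph are blue with DFO in either construct, and Nos2 and Ddit3 red.

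Of 8 genes of glutamine and glutamate metabolism, 6 were measured. With DFO 0 rose and 5 fell in PGC-1α cells and 0 rose and 4 fell in GFP cells. With PGC-1α 2 rose and 2 fell under DFO and 3 rose and 1 fell without it. These are 83.3%, 66.7%, 66.7% and 66.7% of the 6, against 25.6%, 24.2%, 18.9% and 9.73% of all genes. Scaled by the spike-ins, 0 rose and 3 fell, 0 rose and 4 fell, 3 rose and 1 fell, and 2 rose and 0 fell in the same order. Glul, glutamine synthetase, fell by 1.73 with DFO in PGC-1α cells (adjusted p = 0.00147) and fell by 1.68 with PGC-1α under DFO (adjusted p = 0.00311). It also had -0.86 with DFO in GFP cells (adjusted p = 0.0146) and -0.81 with PGC-1α without DFO (adjusted p = 0.0368). The last of these calls ended with spike-in scaling (0.0713). Without single arrays these 2 changes ranged from -0.96 to -0.77 and from -0.90 to -0.72. The aspartate aminotransferases Got1 and Got2 rose with PGC-1α by 2.09 and 1.85 under DFO (adjusted p = 0.000776 and 0.000959) and by 1.68 and 1.51 without it (adjusted p = 0.00256 and 0.00279). Gpt2, mitochondrial alanine aminotransferase, had -1.06 with DFO in PGC-1α and -1.25 in GFP cells (adjusted p = 0.00102 and 0.000739). Among 17 measured genes of mTORC1 and its amino acid sensing, 2 rose and 6 fell with DFO in PGC-1α cells, 2 rose and 4 fell in GFP cells, 2 rose and 3 fell with PGC-1α under DFO, and 1 rose and 1 fell without it. These are 47.1%, 35.3%, 29.4% and 11.8% of the 17, and on the spike-in scale 3 rose and 2 fell, 0 rose and 3 fell, 4 rose and 2 fell, and 1 rose and 0 fell. Sesn1 and Sesn3, sestrins that restrain mTORC1, had -1.36 and -1.53 with DFO in PGC-1α cells (adjusted p = 0.00417 and 0.00383). Nprl3, of the GATOR1 complex, fell by 1.05 with DFO in GFP cells (adjusted p = 0.00442) and had -0.85 in PGC-1α cells (adjusted p = 0.0083). The Nprl3 call in PGC-1α cells ended with spike-in scaling (0.116) and in a fit of only the arrays compared (0.0589). Myc, a transcription factor known to act on Slc7a5 and Slc1a5, rose with DFO in GFP cells by 0.62 (adjusted p = 0.00914), which ended without GFP replicate 1 (0.0527) or GFP plus DFO replicate 1 (0.0692) or 2 (0.0596). Vegfa, a hypoxia response gene, rose with DFO by 0.75 in PGC-1α cells (adjusted p = 0.00364) and by 1.27 in GFP cells (adjusted p = 0.000816).

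Markers of differentiated muscle moved with DFO beside all of these. Of 10 myotube markers 0 rose and 9 fell with DFO in PGC-1α cells and 0 rose and 8 fell in GFP cells, with medians of -3.06 and -2.06. Under DFO 8 fell with PGC-1α (6 fell and 1 rose on the spike-in scale), and 3 fell without DFO (0 on the spike-in scale). On the deposited scale these are 90%, 80%, 80% and 30% of the 10, against 25.6%, 24.2%, 18.9% and 9.73% of all genes. Myog, a transcription factor of differentiation, read 63.1 and 71.1 in PGC-1α plus DFO and 5296.3 and 5244.7 in PGC-1α, against 173.8 and 140.8 in GFP plus DFO and 5223.4 and 5330.2 in GFP. The summed intensity of the 10 was 17020 to 18255 in PGC-1α plus DFO, 52596 to 52940 in PGC-1α, 25816 to 25946 in GFP plus DFO and 62661 to 65327 in GFP. The summed intensity of 9 markers of myoblasts and reserve cells was 1591 to 1922, 4395 to 4549, 1882 to 1893 and 4637 to 4947 in the same order of groups. With DFO 1 of the 9 rose and 4 fell in PGC-1α cells, and 2 rose and 5 fell in GFP cells. Under DFO 2 rose and 3 fell with PGC-1α, and without DFO limma called 0. These are 55.6%, 77.8%, 55.6% and 0% of the 9, against 25.6%, 24.2%, 18.9% and 9.73% of all genes. Group means of Myod1 were 51.3 in PGC-1α plus DFO, 1089.5 in PGC-1α, 170 in GFP plus DFO and 1338 in GFP. Those of Id1 ran the other way with DFO, at 826, 397, 472 and 334 in the same order. The 8 markers of fibroblasts, adipocytes, macrophages and endothelium summed to 701 to 826, 678 to 763, 778 to 793 and 655 to 687, and limma called 0 of them in any of the 4 comparisons. None of the markers was at the lowest listed value of 1 on any array. In bulk RNA fewer myotubes and less RNA of a gene per myotube cannot be told apart, and the part of these shifts, of the actin ratio and of the spike-in difference in the changes of the transporters was not tested.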

How the data were processed

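The deposited table holds probe-set intensities of 8 Affymetrix Mouse 430 2.0 arrays on a linear scale. The sources used here do not give how the authors summarised, background-corrected and scaled them; 968 to 1082 values per array were exactly 1. Per the labels' protocols, total RNA was extracted by kit and made into biotinylated cRNA. Groups came from the labels. The deposited intensities were taken to log2 as they stood, adding no pseudocount and dropping no dim gene. Of 45101 probe sets, 34945 had 1 symbol in the platform annotation, 932 several, 9160 none and 64 were controls; 34741 matched RefSeq by gene ID and 0 symbols changed. Each of 18193 genes was read by the probe set of highest mean log2, and 9010 genes had over 1.

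All 8 arrays entered 1 limma fit (version 3.58.1, R 4.3.3) with a mean for each group (residual df 4, prior df 1.3; eBayes without trend or robust options; two-sided Benjamini-Hochberg p over all genes, called at 0.05). The smallest exact two-sided permutation p for 2 arrays against 2 is 0.333, so p-values rest on limma's pooled spread, and the number of arrays limits precision. The fit was tested on simulated data. No 2 arrays shared over 1.24% of values.

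The members and lists were chosen with earlier results of these data known, and Slc7a2 and all interactions have no test. Named were the members, the 5 genes most like Slc7a2, up to 2 called genes of largest change per list and comparison, and a fixed set that includes Ppargc1a, Atf4, Ddit3 and Myog; not all are printed. Alternatives were quantile normalization, spike-in scaling (27 poly-A control probe sets, the dim Trpn ones included), averaging all probe sets per gene, dropping those named _x_at or _s_at, every probe set, a floor at the 25th percentile, only genes over the median level, trend and robust eBayes, only the groups compared, a replicate block and each array left out. Promoters are RefSeq's (GRCm38.p6). Plots used matplotlib 3.10.9 (Python 3.11.15).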

Additional observations from a re-analysis of the deposited data

Results flagged for a closer look

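Slc7a2 moved in opposite directions with DFO by construct. Both DFO arrays lay above both untreated arrays in PGC-1α cells and below them in GFP cells, and the same held for PGC-1α against GFP with and without DFO. The difference between the changes, 2.583 on the log2 scale, is the value that chose the gene family, and it was not tested. Slc7a1, the related cationic transporter, showed the same split on its brightest probe set, with a difference of 0.481 that was not tested either. Its second bright probe set was lower with DFO in both constructs, at 1054.2 and 912.1 in PGC-1α plus DFO, against 1243.2 and 1306.3 in PGC-1α, and at 951.9 and 986.2 in GFP plus DFO, against 1576.9 and 1493.6 in GFP. The dimmest probe set, 1421533_at, was also lower with DFO in both constructs.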

How the results depend on the processing

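For PGC-1α without DFO, 0 of the 9 members and 1770 genes were called; without _x_at or _s_at probe sets it was 1 member (Slc38a1), among genes above the median level 2 (Slc1a5, Slc7a1) and 3524 genes, with trend and robust options 2 (Slc3a2, Slc7a1) and 3746 genes, and 880 genes with spike-in scaling, 940 with the mean of probe sets and 0 in a fit of only these 4 arrays, where genes at an unadjusted p under 0.05 numbered 4531. For PGC-1α with DFO, 4 members and 3446 genes became 7 members and 4992 genes with trend and robust options. It was 0 members and 861 genes with only the groups compared, and 2213 genes with the mean of probe sets. For DFO in PGC-1α cells, 4 members and 4662 genes became 2 members with spike-in scaling (Slc7a1, Slc7a5) or the mean of probe sets (Slc3a2, Slc7a5), 1 member (Slc7a5) and 1942 genes with only the groups compared, and 7246 probe sets when every probe set was fitted. For DFO in GFP cells, 3 members and 4409 genes became 5 members with the mean of probe sets, genes above the median level or trend and robust options, and 2920 genes with spike-in scaling. Spike-in scaling put 85.6%, 89.3% and 76.0% of the calls for PGC-1α without and with DFO and DFO in PGC-1α cells on the higher side, against 51.0%, 36.6% and 44.6% on the deposited scale. With the replicate block, 0, 3 (without Slc7a5, adjusted p = 0.0642), 4 and 3 members and, for PGC-1α without DFO, 1060 genes were called. Same-numbered arrays had correlations of deviations of 0.221 between PGC-1α plus DFO and GFP plus DFO and of -0.11 to 0.074 between the other groups; the labels do not say that the numbers pair arrays.

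Without each array in turn, in the same order of comparisons, 0 to 0, 0 to 3, 2 to 4 and 2 to 4 members and 304 to 2094, 873 to 3431, 2637 to 4130 and 2069 to 4695 genes were called.

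These values changed direction. For PGC-1α without DFO: Slc7a5 0.17 and Slc3a2 0.0022 with spike-in scaling, Slc38a2 -0.41 and Rragd 0.15 with the mean of probe sets. For PGC-1α with DFO: Slc7a1 -0.042 with the mean of probe sets, Slc38a4 0.0001 with quantile normalization and 0.49 with spike-in scaling, and Myc 0.034 with spike-in scaling. For DFO in PGC-1α cells: Slc7a1 -0.18 with the mean of probe sets, Slc38a1 0.070 and Gpt 0.79 without _x_at or _s_at probe sets, Slc38a4 0.22, Slc1a4 0.33 and Slc1a5 0.21 with spike-in scaling, Slc1a4 0.054 with quantile normalization and Slc1a5 0.013 with the mean of probe sets. For DFO in GFP cells: Slc38a2 -0.27 with the mean of probe sets. Leaving out an array turned small or dim values. Ranges for PGC-1α without DFO were -0.12 to 0.0315 (Slc7a5), -0.092 to 0.11 (Slc7a11), -0.0014 to 0.27 (Slc38a2) and -2.62 to 0.73 (Slc38a4), and for PGC-1α with DFO -0.0415 to 0.044 (Slc3a2) and -0.96 to 0.93 (Slc38a4). For DFO in PGC-1α cells they were -1.56 to 1.29 (Slc38a4), -0.32 to 0.27 (Slc1a4) and -0.37 to 0.0755 (Slc1a5), and in GFP cells -0.0093 to 0.20 (Slc7a11) and -2.74 to 0.61 (Slc38a4). Of the changes of the 9 tested members over all alternatives, 524 kept direction and call, 52 lost a call, 33 gained one and 31 changed direction. The causes were not tested, beyond fewer arrays or genes in the settings that drop them, and dim probe sets limit what the arrays resolve.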
